A study of Mus musculus with 196 samples.

Results

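PIWI-interacting RNAs (piRNAs) are small RNAs that guide PIWI proteins to transposon RNA, and 10 mouse genes of this pathway were followed through a culture model of the female germ line. The genes were taken by symbol from a fixed list, and 10 of the 25706 endogenous genes of the expression table matched it. That list was chosen with earlier results of these data known. Counts of members beside shares of all genes are therefore descriptions and no test of an excess. They comprise the PIWI proteins Piwil1 (MIWI), Piwil2 (MILI) and Piwil4 (MIWI2), their RNA helicases Ddx4 and Mov10l1, the mitochondrial factors Asz1 and Pld6, the nuage protein Mael, the PIWI cofactor Gtsf1 and the 3′ trimming exonuclease Pnldc1. Their levels were compared between lines, treatments and days of culture.

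In mice, piRNA precursors are unwound by Mov10l1 and cut at the surface of mitochondria, where Pld6 and Asz1 sit. Pnldc1 trims the 3′ ends of the cut pieces, which PIWI proteins carry. Piwil2 and Piwil4 are best known from fetal male germ cells, where they silence transposons by slicing and by guiding DNA methylation, and Piwil1 from spermatocytes and spermatids after birth. Female mice that lack pathway factors are generally fertile, although fetal oocytes do express several of the genes.

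The samples were mouse primordial germ cell-like cells (PGCLCs), cultured counterparts of early germ cells, derived from embryonic stem cells. All lines descend from H18, a stem cell line of mixed 129S1 and C57BL/6 background that carries Prdm1-mVenus and Dppa3-ECFP reporter transgenes. OE_A2 adds piggyBac transgenes for the reverse transactivator rtTA and for a doxycycline-inducible Zglp1 coding sequence linked to mCherry, and OESko_A11 carries the same transgenes on a Stra8-/- background. Zko_E5 and Zko_G10 are Zglp1-/- clones, and Sko_B6 and Sko_F6 are Stra8-/- clones. ZGLP1 is a zinc finger protein of the GATA-like family, and STRA8 governs entry into meiosis. Each line is 1 clone, and no line without the transgene received doxycycline. Cells sorted for Prdm1-mVenus (day 0) were cultured on m220 feeder cells, which display membrane-bound SCF, and were sorted again for Dppa3-ECFP. OE_A2 was given doxycycline (Dox), Dox with retinoic acid (DoxRA), compounds known here only as BMS and WIN, WIN in medium without serum (SerumMinusWIN), or either of these media with Dox (BMSDox, SerumMinusWINDox). H18 and the Zglp1-/- clones were given BMP2, or BMP2 with retinoic acid (B2RA), and H18 also retinoic acid alone. The Stra8-/- clones were given B2RA but not BMP2 alone, and OESko_A11 was given DoxRA. Every line had a group labelled control. Groups held 2 libraries each, apart from 1 per day for SerumMinus (no serum, nothing else named) in OE_A2 and 1 for B2RA in H18 at day 4. There was no H18 control group at day 9. Germ cells of ICR and C57BL/6 crosses gave 1 library at E9.5, another at E14.5 and another at E15.5, with E9.5 cells sorted for a Dppa3-EGFP reporter and later oocytes for a Ddx4-RFP reporter, so a high Ddx4 level in those oocytes is no finding.

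Promoter windows are shown for Ddx4, Mael, Mov10l1 and Asz1, the members called higher in every induction of Zglp1 at day 9. Each runs from 250 bases before to 50 after the annotated start on the gene's own strand (RefSeq, GRCm38.p6), with searched motifs in capitals. The motifs were GATAA, the letters of a GATA site, since Zglp1 belongs to the GATA-like family, the E-box CACGTG and the E2F-like GCGGGAA, which are known from germline promoters bound by PRC1.6, with TGACGTCA and AGGTCA. Both strands were searched, and no motif overlapped another in the windows shown. The Ddx4 window is chr13:112652261-112652560 (minus strand), the Mael window chr1:166238695-166238994 (minus strand), the Mov10l1 window chr15:88982744-88983043 (plus strand) and the Asz1 window chr6:18109012-18109311 (minus strand).
Ddx4: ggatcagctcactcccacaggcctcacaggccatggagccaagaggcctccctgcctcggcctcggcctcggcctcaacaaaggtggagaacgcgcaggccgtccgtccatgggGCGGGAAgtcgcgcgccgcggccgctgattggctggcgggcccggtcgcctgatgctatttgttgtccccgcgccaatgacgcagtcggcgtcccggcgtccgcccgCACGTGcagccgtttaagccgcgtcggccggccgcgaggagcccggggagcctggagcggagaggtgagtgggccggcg
Mael: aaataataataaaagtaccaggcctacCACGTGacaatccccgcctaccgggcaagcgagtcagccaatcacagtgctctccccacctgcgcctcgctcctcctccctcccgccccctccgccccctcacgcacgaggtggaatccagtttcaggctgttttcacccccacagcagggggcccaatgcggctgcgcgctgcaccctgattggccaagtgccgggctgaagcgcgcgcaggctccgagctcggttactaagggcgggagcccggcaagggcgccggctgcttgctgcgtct
Mov10l1: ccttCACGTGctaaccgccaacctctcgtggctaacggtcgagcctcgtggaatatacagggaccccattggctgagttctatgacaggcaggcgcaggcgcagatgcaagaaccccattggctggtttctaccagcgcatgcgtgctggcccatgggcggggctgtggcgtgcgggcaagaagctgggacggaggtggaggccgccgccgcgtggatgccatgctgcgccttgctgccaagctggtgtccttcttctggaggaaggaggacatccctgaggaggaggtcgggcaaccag
Asz1: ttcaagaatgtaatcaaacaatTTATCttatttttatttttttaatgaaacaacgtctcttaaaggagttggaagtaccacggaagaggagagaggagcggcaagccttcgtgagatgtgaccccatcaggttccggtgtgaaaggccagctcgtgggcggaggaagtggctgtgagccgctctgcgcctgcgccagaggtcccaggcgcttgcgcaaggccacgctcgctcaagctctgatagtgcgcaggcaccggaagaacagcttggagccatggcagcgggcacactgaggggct
CACGTG stood 29 bases before the start of Ddx4, 223 before that of Mael and 246 before that of Mov10l1, and 7.15% of the 32851 RefSeq windows of the same length hold it. Ddx4 also held GCGGGAA, found in 4.6% of windows, and Asz1 held TTATC, the reverse of GATAA, which 25.4% of windows hold. Neither TGACGTCA (1.79% of windows) nor AGGTCA (16.3%) was in these 4 windows. The windows held 38 CG dinucleotides in Ddx4, 24 in Mael, 20 in Mov10l1 and 17 in Asz1, against a median of 7 over all windows. The quartiles over all windows were 3 and 20, so Asz1 lay between them and Mov10l1 at the upper quartile. Windows for Gtsf1, with 13 CG dinucleotides, and for the 2 starts of Piwil4, with 11 and 0, held none of the motifs. The window of Piwil1 held CACGTG at 2 places, and 1 of the 2 windows of Pld6 held CACGTG and TGACCT, the reverse of AGGTCA. Such matches describe the letters in these windows only. The RefSeq start lies inside the gene as GENCODE places it by 165 bases in Ddx4, 85 in Mov10l1 and 3 in Mael, and by 33722 bases in Piwil1 and 22346 at 1 start of Piwil4.

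The 10 genes lie on separate stretches of the genome, all annotated as protein coding (mm10, GENCODE M21). Piwil1 (identifier 57749) lies on chromosome 5 from 128702524 to 128755474, Piwil2 (57746) on chromosome 14 from 70372477 to 70429383, and Piwil4 (330890) on chromosome 9 from 14696230 to 14740733. Ddx4 (13206) spans 112598333 to 112652475 on chromosome 13, Mael (98558) spans 166201201 to 166238747 on chromosome 1, and Asz1 (74068) spans 18050964 to 18109061 on chromosome 6. Mov10l1 (83456) and Gtsf1 (74174) share chromosome 15, at 88982909 to 89055152 and at 103402405 to 103430470. Pld6 (194908) is on chromosome 11 from 59783897 to 59787645, and Pnldc1 (240023) on chromosome 17 from 12888729 to 12910230. Genes on the opposite strand are annotated over Piwil1, Piwil4 and Pnldc1. The strand setting of the counting is not given in the sources used here, so reads of those partners cannot be told apart from reads of these members.

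Levels are reads per 1000000 (RPM) from the 3′ ends of RNA, not scaled to gene length, so they are compared within a gene only. Libraries held 877040 to 5196593 reads, and 1 read was worth 0.192 to 1.14 RPM. Changes are differences of log2(RPM + 1) ± SE from 1 limma fit over 191 PGCLC libraries, which compresses the changes of weakly expressed genes. Genes with 10 RPM in at least 2 compared libraries were tested, and calls needed a change of at least 1 and a limma p, after Benjamini-Hochberg adjustment, under 0.05. No label states that replicate libraries are of independent cultures, so SE and p measure only the spread between these libraries, which may be technical, and for a pair of clones they hold no spread between clones. Members passed the filter in many comparisons only through the group where they were high, so counts are of members tested, not of all 10. In these bulk samples fewer cells of a type and less RNA per cell cannot be told apart. Early germ cell markers (Dppa3, Prdm1, Tfap2c, Nanos3, Dnd1, Kit) all had reads in every group of day 9. The sorts used reporters of Prdm1 and Dppa3, so reads of these genes are no check of cell identity. Summed feeder and stroma markers were 372 to 1623 RPM there and summed gonadal soma markers 4.15 to 151 RPM, with no read of Amh in any group. The mCherry row read 925 to 11751 RPM with Dox and 43.5 to 406 RPM without it in OE_A2 at day 9. Tags of Zglp1 and Stra8 remained in the knockout clones, and since a 3′ tag can lie outside the deleted part they check nothing. Scaling by TMM factors moved the median change of all tested genes by -0.283 to 0.162 (log2) across the 43 comparisons.

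Ddx4, Piwil2, Mael and Mov10l1 were broadly detected in PGCLCs, whereas Piwil1 and Pld6 stayed low. Ddx4 reached 10 RPM in all 191 PGCLC libraries, Piwil2 in 189, Pnldc1 in 188, Mael in 184, Mov10l1 in 179, Asz1 in 146, Gtsf1 in 52 and Piwil4 in 23. Piwil1 was at most 7.17 RPM in any PGCLC library and Pld6 reached 10 RPM in only 1, so neither entered a test. At day 0 several members were low: Mael was at 0.663 and 2.40 RPM in OE_A2, Asz1 at 0.663 and 0.902 RPM, and Mov10l1 at 4.31 and 6.01 RPM. Ddx4 at that day already stood at 24.5 and 20.1 RPM, and Piwil2 at 13.3 and 13.2 RPM. In embryos, Mael was at 1.91 RPM at E9.5, 961 RPM at E14.5 and 908 RPM at E15.5. Mov10l1 followed the same order at 2.39, 337 and 321 RPM, Asz1 at 1.44, 99.4 and 164 RPM, and Gtsf1 at 0.957, 73.0 and 93.6 RPM. Piwil2 was at 22.0, 110 and 114 RPM over these stages, and Pnldc1 at 14.6, 22.4 and 10.4 RPM. Piwil4 stayed at 0.239, 2.42 and 2.86 RPM. Piwil1 had 1.21 RPM at E14.5 and no read at E9.5 or E15.5, where 3 reads would be 0.718 and 1.07 RPM. With 1 library per stage, none of these embryonic differences has a replicate check. The label text of the embryonic and OE_A2 day 0 libraries names 1 RNA extraction kit. That of the day 9 PGCLC libraries names that kit or another. Between these sets, stage and extraction text therefore cannot be told apart.

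**Figure D1:**
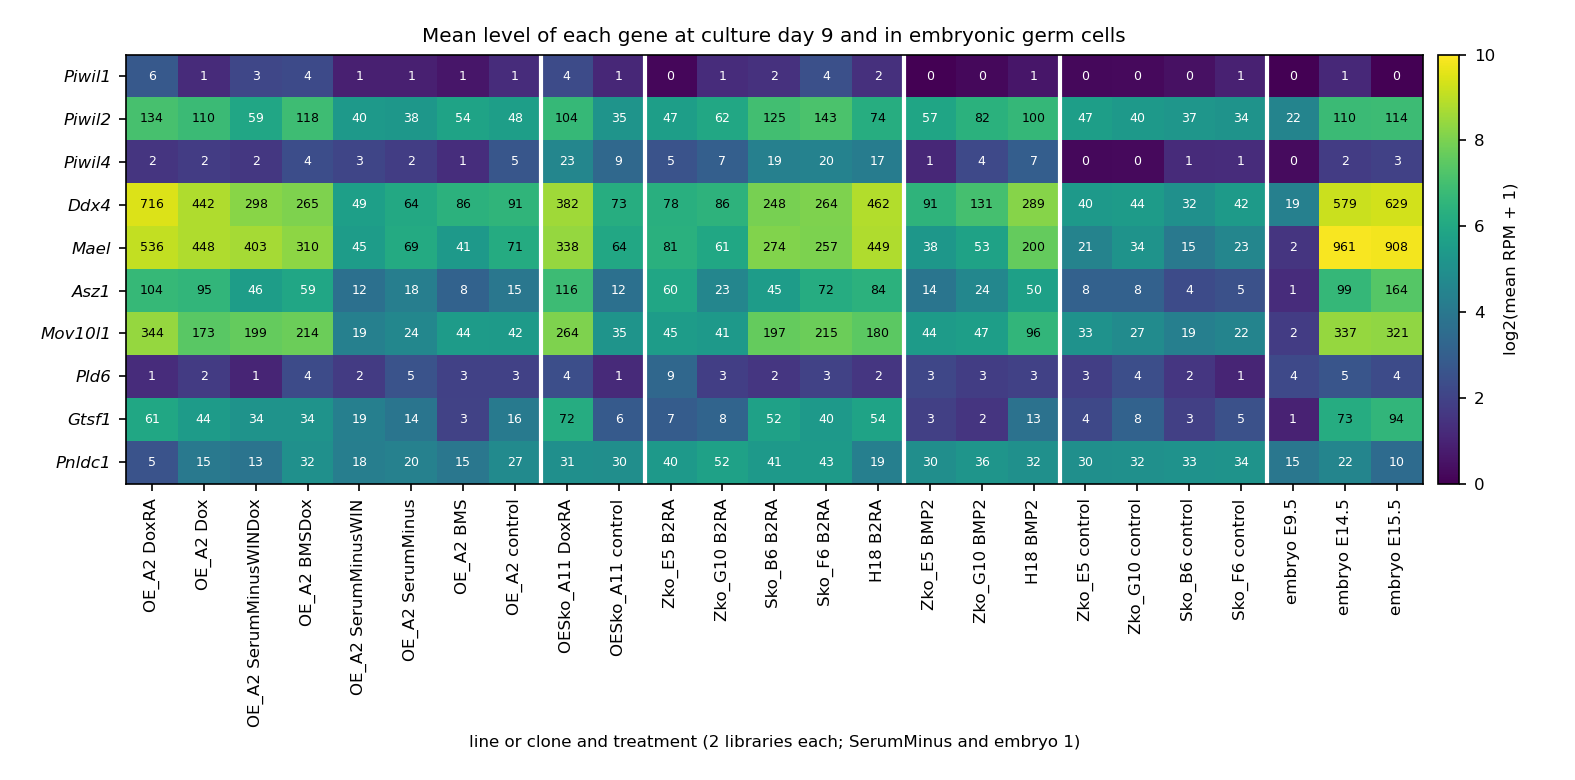
Mean RPM (printed in each cell) of the 10 genes in 22 groups of culture day 9 and 3 embryonic stages, coloured by log2(mean RPM + 1). Columns are lines and treatments, with induced or treated groups left of their controls. The Piwil1 row stays at 5.90 RPM or less, while Ddx4 spans 31.5 to 716 RPM among the PGCLC groups of 2 libraries. The embryonic libraries carry another label text on RNA extraction than the PGCLC libraries shown.

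At day 9, OE_A2 with DoxRA stood highest for Ddx4 (716 ± 138 RPM), Mael (536 ± 80.9 RPM) and Mov10l1 (344 ± 64.3 RPM; SD, n = 2 libraries each). Among the 21 groups with 2 libraries, it did not overlap with the next group, H18 with B2RA, for Ddx4 (462 ± 11.8 RPM) and Mael (449 ± 19.8 RPM), and for Mov10l1 it did overlap with the next, OESko_A11 with DoxRA (264 ± 72.6 RPM). For Mael it also overlapped with OE_A2 with Dox, whose mean lay just under that of H18 with B2RA. Libraries of neighbouring groups overlapped in 15 of the 20 steps of this order for Ddx4 and Asz1, in 16 for Pnldc1, 17 for Mael and Mov10l1, 18 for Piwil1 and Piwil2, 19 for Piwil4 and all 20 for Gtsf1 and Pld6. Most neighbours in these orders therefore did not differ beyond their spread. Asz1 and Gtsf1 were highest in OESko_A11 with DoxRA, at 116 ± 19.0 and 72.1 ± 17.8 RPM. The lowest groups for Asz1 were the Stra8-/- control groups, at 4.62 ± 0.997 RPM in Sko_F6 and 3.89 ± 0.433 RPM in Sko_B6. Pnldc1 ran from 52.0 ± 4.56 RPM in Zko_G10 with B2RA to 4.89 ± 3.23 RPM in OE_A2 with DoxRA, which held the lowest place for this gene and the highest for Ddx4, Mael, Mov10l1 and Piwil1.

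Induction of Zglp1 in control medium raised 5 of the 7 members tested in OE_A2 at day 9, and 13.4% of the 9372 genes tested were called higher. The median change of the tested members was 2.07, against 0.061 over all tested genes. The median is no test. Mael, a nuage protein of transposon silencing, was at 493 and 403 RPM with Dox, against 47.5 and 94.5 RPM in control (2.72 ± 0.36, adjusted p = 1.62e-09, limma). Asz1, a scaffold of the mitochondrial outer membrane, was at 107 and 83.1 RPM with Dox and 5.16 and 24.4 RPM in control (2.93 ± 0.49, adjusted p = 8.66e-07). Both genes had Dox libraries above both control libraries, and the control libraries of Asz1 differed widely between themselves. Ddx4, the germ cell RNA helicase also called MVH, was at 478 and 406 RPM with Dox, against 61.3 and 121 RPM in control (2.34 ± 0.32). Mov10l1, the helicase of precursor processing, was at 182 and 164 RPM with Dox and 29.3 and 55.3 RPM in control (2.07 ± 0.36). Piwil2 was the only PIWI gene tested, at 118 and 103 RPM with Dox against 38.2 and 57.8 RPM in control (1.21 ± 0.36, adjusted p = 0.00593), and its call was lost without control replicate 1 (0.92) or Dox replicate 1 (1.12). In 6 of the 7 members, Gtsf1 among them, every Dox library lay above both control libraries, as in 40.6% of all genes tested. Gtsf1 was at 47.7 and 40.6 RPM with Dox and 16.5 and 16.2 RPM in control, which missed the call (1.38 ± 0.61, adjusted p = 0.0688) in the fit over all groups. It was called with a pseudocount of 5 and in the fit of these groups alone. Pnldc1 was at 14.6 and 16.1 RPM with Dox and 27.2 and 26.6 RPM in control, short of the fold needed (-0.77 ± 0.28). Summed early germ cell markers were 446 to 579 RPM with Dox, against 969 to 1272 RPM in control, and 0 of 5 tested rose while 3 fell. Summed pluripotency markers were 138 to 141 RPM with Dox and 628 to 831 RPM in control, and 5 of 5 tested fell. Their part in the members' changes was not tested.

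DoxRA gave 6 members higher and 1 lower of 7 tested at day 9, in a comparison where 25.6% of the 9517 genes tested were called higher and 22.5% lower. Mael was at 593 and 478 RPM with DoxRA, against the control values above (2.97 ± 0.36), and Mov10l1 at 298 and 389 RPM (3.05 ± 0.36, adjusted p = 1.27e-12). Ddx4 was at 618 and 813 RPM with DoxRA (3.02 ± 0.32), Asz1 at 85.2 and 122 RPM (3.04 ± 0.49) and Piwil2 at 118 and 151 RPM (1.49 ± 0.36). In 6 of the 7 members the DoxRA libraries lay above both control libraries, as in 41.2% of all genes tested. Gtsf1, which stimulates slicing by PIWI proteins, was at 80.6 and 41.5 RPM with DoxRA and 16.5 and 16.2 RPM in control (1.76 ± 0.61, adjusted p = 0.00915), and without DoxRA replicate 1 it was not called (1.29). Pnldc1, the trimmer of piRNA 3′ ends, went the other way, at 2.60 and 7.17 RPM with DoxRA, against 27.2 and 26.6 RPM in control (-2.36 ± 0.28, adjusted p = 2.50e-12). Without either control library Pnldc1 no longer met the filter on low values, with changes of -2.35 and -2.38. Piwil4 was not tested here, at 3.75 RPM and no read with DoxRA, where 3 reads would be 2.39 RPM, against 7.23 and 3.59 RPM in control. Summed early germ cell markers were 58.2 to 76.0 RPM with DoxRA and 969 to 1272 RPM in control, and all 5 tested fell. Pluripotency markers summed to 52.6 to 71.3 RPM and 628 to 831 RPM. Their part in these changes was not tested.

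Adding retinoic acid to Dox changed 1 of the 7 members tested: Pnldc1 was lower with DoxRA than with Dox (-1.59 ± 0.28, adjusted p = 3.75e-06, limma), where 10.6% of 9121 genes were called lower. The DoxRA libraries held 2.60 and 7.17 RPM and the Dox libraries 14.6 and 16.1 RPM. The gene fell below the filter without either Dox library (-1.66 and -1.53), missed the fold without DoxRA replicate 1 (-0.998) and was not called in the fit of these groups alone (adjusted p = 0.120). Mov10l1 came close to the fold, at 298 and 389 RPM with DoxRA and 182 and 164 RPM with Dox (0.98 ± 0.36, adjusted p = 0.0332). It was called without DoxRA replicate 1 (1.17). For Mael (0.26 ± 0.36), Asz1 (0.11 ± 0.49) and Piwil2 (0.27 ± 0.36) differences of this size lay within their errors. The 3 comparisons among DoxRA, Dox and control share libraries.

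**Figure D2:**
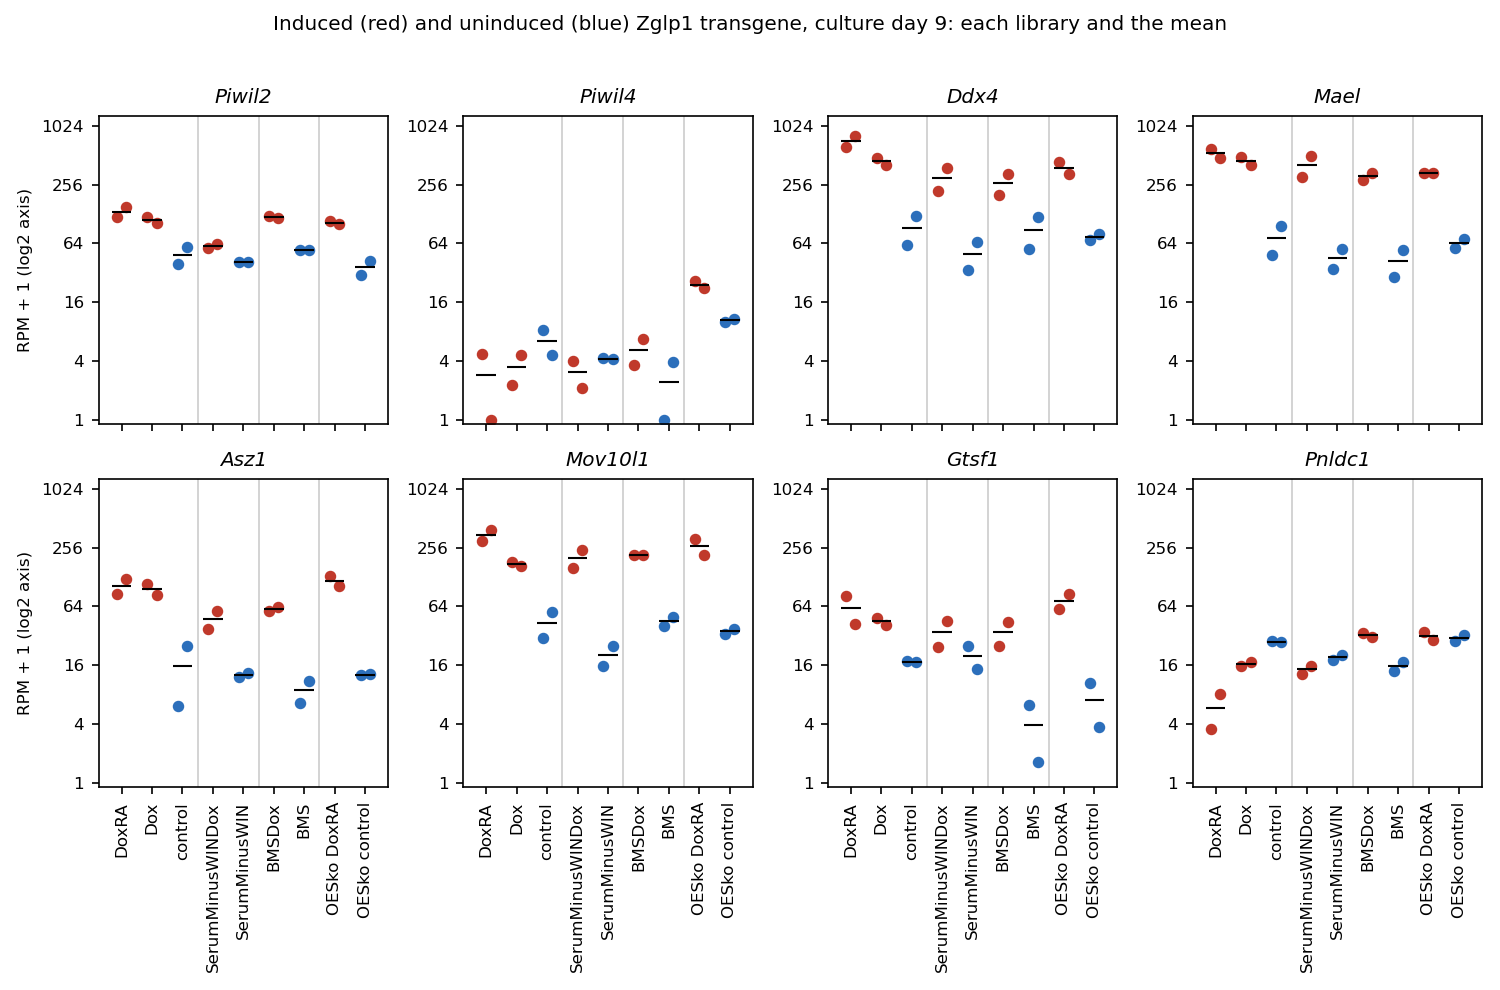
RPM + 1 on a log2 axis for 8 genes at day 9 in groups with the Zglp1 transgene induced (red) or not (blue). Points are libraries and black lines group means. Mael, Mov10l1, Ddx4 and Asz1 have every red point above its blue partners, while Pnldc1 has red below blue in DoxRA (2.60 and 7.17 against 27.2 and 26.6 RPM) and above it in BMSDox.

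In serum-free medium with WIN, Dox raised 4 of the 7 members tested at day 9, where 13.3% of 9326 genes were called higher. Mov10l1 was at 157 and 241 RPM with SerumMinusWINDox, against 14.7 and 24.0 RPM with SerumMinusWIN (3.30 ± 0.36). Mael was at 308 and 499 RPM and 34.1 and 55.3 RPM in the same order of groups (3.15 ± 0.36), and Ddx4 at 218 and 379 RPM and 33.3 and 64.9 RPM (2.60 ± 0.32). Asz1 was at 36.3 and 56.7 RPM with SerumMinusWINDox, against 11.2 and 12.5 RPM (1.86 ± 0.49, adjusted p = 0.00142), and lost its call without SerumMinusWINDox replicate 2 (1.54). These are 2 helicases, the nuage protein and the mitochondrial scaffold. The PIWI gene Piwil2 was at 56.8 and 61.8 RPM with SerumMinusWINDox and 39.9 and 40.3 RPM with SerumMinusWIN and was not called (0.55 ± 0.36, adjusted p = 0.239). Neither was Gtsf1 (0.81 ± 0.61), whose libraries overlapped, nor Pnldc1 (-0.42 ± 0.28). The difference of this Dox response from that in control medium was called for none of the 7 members by limma or edgeR, with 1 at an unadjusted p under 0.05, and for 0.0100% of 9989 genes. For Asz1 that difference was -1.07 ± 0.69 and for Mov10l1 1.23 ± 0.50. SerumMinusWIN set against control called none of the 7 members by limma or edgeR, with 2 at an unadjusted p under 0.05, and 0.0220% of 9091 genes. Of the 2 genes called there 50.0% were higher, and 66.7% of those called with TMM factors. Summed pluripotency markers were 148 to 365 RPM with SerumMinusWINDox, against 911 to 1089 RPM with SerumMinusWIN, and early germ cell markers 232 to 256 RPM and 617 to 892 RPM. Their part was not tested.

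With BMS, Dox raised all 7 members tested at day 9, where 14.8% of 9279 genes were called higher. Mael was at 286 and 335 RPM with BMSDox, against 28.1 and 53.7 RPM with BMS (2.96 ± 0.36), and Asz1 at 56.1 and 62.5 RPM against 5.63 and 10.1 RPM (2.81 ± 0.49). Gtsf1 was at 24.1 and 43.5 RPM with BMSDox and 5.25 and 0.650 RPM with BMS (3.38 ± 0.61), and without either BMSDox library it fell below the filter (3.79 and 2.97). Mov10l1 was at 216 and 212 RPM with BMSDox, against 39.4 and 48.5 RPM (2.27 ± 0.36), and Ddx4 at 199 and 330.4 RPM against 54.8 and 117 RPM (1.67 ± 0.32). In all 7 members tested the BMSDox libraries lay above both BMS libraries, as in 43.6% of all genes tested. The remaining calls were near the fold. Piwil2 was at 122 and 115 RPM with BMSDox and 54.4 and 54.0 RPM with BMS (1.11 ± 0.36, adjusted p = 0.0125), and Pnldc1 at 33.2 and 30.3 RPM and 13.1 and 16.3 RPM (1.07 ± 0.28, adjusted p = 0.00171). With TMM factors the changes of Piwil2 (0.83) and Pnldc1 (0.80) fell short of the call, and likewise in edgeR's quasi-likelihood test (0.91 and 0.90). Piwil2 was not called without any 1 of the 4 libraries (1.07 to 1.15), nor Pnldc1 without BMS replicate 1 (0.92). Of all called genes 69.9% were higher, and 46.0% with TMM factors. Early germ cell markers summed to 510.1 to 860.4 RPM with BMSDox, against 1152 to 1341 RPM with BMS, and pluripotency markers to 312 to 381 RPM and 813 to 815 RPM. Their part was not tested.

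The Pnldc1 response to Dox differed between BMS and control medium by 1.84 ± 0.40 (adjusted p = 0.00433, limma), the only 1 of 7 members for which it did, with 1.64% of 10015 genes called in either direction. That call was lost without control replicate 1 (1.82, adjusted p = 0.0669), in the fit of these groups alone (adjusted p = 0.0501) and in edgeR (1.72). BMS alone, set against control, left Gtsf1 lower at 5.25 and 0.650 RPM, against 16.5 and 16.2 RPM in control (-2.43 ± 0.61, adjusted p = 0.0116), where 1.91% of 9037 genes were called lower. The 222 genes called in either direction became 3 without control replicate 1, 95 without control replicate 2, 20 without BMS replicate 1, 403 without BMS replicate 2 and 13 in the fit of these groups alone, so that share is unsteady. Gtsf1 was not called without BMS replicate 2 (-1.47), in the fit of these groups alone or in edgeR (adjusted p = 0.179 and 0.187), and left the filter without either control library (-2.42 and -2.45). Pnldc1 was at 13.1 and 16.3 RPM with BMS, against 27.2 and 26.6 RPM in control, and missed the call (-0.84 ± 0.28, adjusted p = 0.0750). Among called genes 22.1% were higher with BMS, and 45.4% with TMM factors. For the difference of Dox responses these shares were 81.1% and 39.4%. The control libraries are shared by these comparisons and that of Dox with control.

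On the Stra8-/- background, DoxRA raised 6 of 8 members tested in OESko_A11 at day 9, where 13.5% of 9663 genes were called higher. Gtsf1 was at 59.5 and 84.7 RPM with DoxRA, against 9.47 and 2.75 RPM in control (3.52 ± 0.61), and Asz1 at 129.5 and 103 RPM against 11.6 and 12.1 RPM (3.18 ± 0.49). Mov10l1 was at 316 and 213 RPM with DoxRA and 32.7 and 36.8 RPM in control (2.87 ± 0.36), Mael at 339 and 336 RPM and 56.8 and 70.3 RPM (2.40 ± 0.36), and Ddx4 at 436 and 328 RPM and 68.0 and 78.5 RPM (2.35 ± 0.32). Piwil2 was at 108 and 99.2 RPM with DoxRA, against 29.7 and 41.2 RPM in control (1.54 ± 0.36). In 7 of the 8 members tested the DoxRA libraries lay above both control libraries, as in 46.0% of all genes tested, although Gtsf1 left the filter without either DoxRA library (3.78 and 3.27). Piwil4, the nuclear PIWI protein, was at 25.2 and 21.3 RPM with DoxRA and 9.04 and 9.88 RPM in control and missed the call (1.21 ± 0.61, adjusted p = 0.119), though it was called in the fit of these groups alone. Pnldc1 was at 33.8 and 28.1 RPM with DoxRA and 27.6 and 31.8 RPM in control, with overlapping libraries (0.05 ± 0.28). Of all called genes 67.2% were higher, and 46.9% with TMM factors. Early germ cell markers summed to 683 to 756 RPM with DoxRA, against 1515 to 1595 RPM in control, and their part was not tested.

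The DoxRA response of OESko_A11 differed from that of OE_A2 for Pnldc1 and Piwil4 among 8 members tested, with 20.0% of 10372 genes called in either direction. For Pnldc1 the difference was 2.42 ± 0.40 (adjusted p = 1.24e-06, limma), with a change of -2.36 in OE_A2. For Piwil4 it was 2.71 ± 0.86 (adjusted p = 0.0149). Piwil4 was not called without OE_A2 control replicate 1 (2.29) or DoxRA replicate 2 (1.58), left the filter without either OESko_A11 DoxRA library (2.59 and 2.82), and was not called in the fit of these groups alone (adjusted p = 0.0803) or in edgeR (2.28). In OE_A2 this gene was under the filter in both groups, with no read in 1 DoxRA library. Its change within OESko_A11 was itself not called in the fit over all groups. The responses of Mael (-0.57 ± 0.51), Ddx4 (-0.67 ± 0.45), Mov10l1 (-0.18 ± 0.50), Asz1 (0.14 ± 0.69) and Piwil2 (0.05 ± 0.52) were not called different. Each line is 1 clone, so clone and genotype cannot be told apart. Of all called genes 73.8% had a higher response in OESko_A11, and 62.0% with TMM factors.

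**Figure D3:**
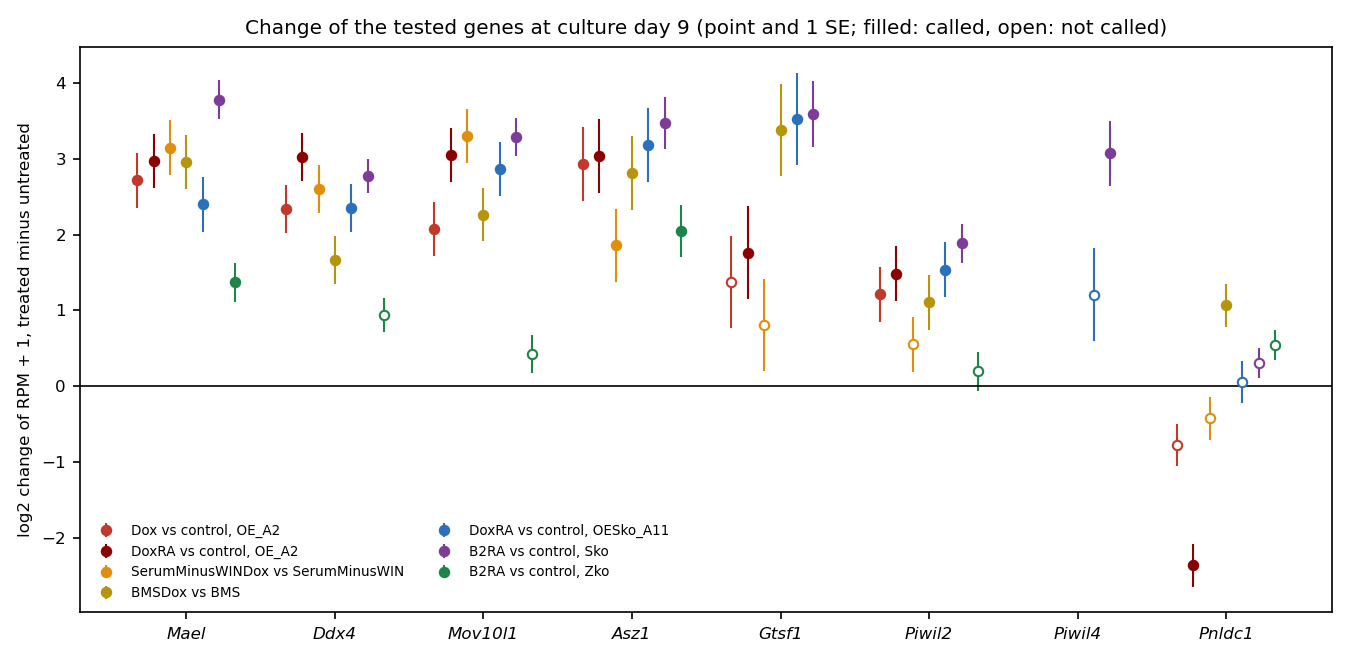
Change of log2(RPM + 1) at day 9, treated minus untreated, for 8 genes in 7 comparisons, with bars of 1 SE and filled points for called changes. Mael, Ddx4, Mov10l1 and Asz1 lie above 1 in most comparisons, B2RA in the Zglp1-/- clones (green) has the lowest point for Mael, Ddx4 and Mov10l1, and Pnldc1 ranges from -2.36 to 1.07.

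In the Zglp1-/- clones, BMP2 raised 2 of 6 members tested at day 9, where 0.815% of 9565 genes were called higher. Ddx4 was at 90.3 and 90.9 RPM in Zko_E5 and 127 and 134 RPM in Zko_G10 with BMP2, against 43.4 and 36.4 RPM and 52.3 and 34.7 RPM in control (1.38 ± 0.23, adjusted p = 6.86e-06, limma). Asz1 was at 13.9 and 14.1 RPM and 17.995 and 29.7 RPM with BMP2, against 6.70 and 8.61 RPM and 5.81 and 9.26 RPM in control (1.17 ± 0.34, adjusted p = 0.0475). Asz1 was near the threshold: its call was lost without any 1 of 7 of the 8 libraries (0.99 to 1.31), with either other pseudocount, with TMM factors (adjusted p = 0.0522), in the fit of these groups alone and in edgeR. Mael averaged 45.2 ± 9.08 RPM with BMP2 and 27.8 ± 10.6 RPM in control (SD, n = 4), with overlapping libraries (0.73 ± 0.25, adjusted p = 0.123). Piwil2 averaged 69.8 ± 16.1 and 43.8 ± 15.0 RPM (0.71 ± 0.26) and was called without Zko_G10 control replicate 1 (1.02).

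B2RA raised Asz1 and Mael of 6 members tested in the same clones at day 9, where 6.63% of 9980 genes were called higher. Mael was at 78.0 and 84.2 RPM in Zko_E5 and 68.6 and 53.5 RPM in Zko_G10 with B2RA, against 18.3 and 24.4 RPM and 25.3 and 43.1 RPM in control (1.37 ± 0.25, adjusted p = 1.26e-05). Asz1 was at 27.1 and 92.3 RPM in Zko_E5 and 22.6 and 23.2 RPM in Zko_G10 with B2RA (2.05 ± 0.34). Replicate 2 of Zko_E5 with B2RA stood apart, with 985914 reads and with 11850 genes detected, the fewest genes of any library. It held 92.3 RPM of Asz1, 17.2 RPM of Piwil2, 22.3 RPM of Mov10l1 and 16.2 RPM of Pld6, against 27.1, 76.9, 68.2 and 2.11 RPM in replicate 1. Without it Asz1 (1.61) and Mael (1.34) were still called and Ddx4 was called too (1.18), while Ddx4 over all libraries missed the fold (0.94 ± 0.23). Ddx4 was at 103 and 52.7 RPM in Zko_E5 and 81.8 and 90.9 RPM in Zko_G10 with B2RA. It also passed without control replicate 1 of Zko_E5 (1.00) or of Zko_G10 (1.08). Piwil2 (0.20 ± 0.26, and 0.72 without the library that stood apart), Mov10l1 (0.43 ± 0.25, and 0.83) and Pnldc1 (0.54 ± 0.20, and 0.66) were not called. Among called genes 60.5% were higher, and 45.5% with TMM factors. B2RA set against BMP2 in these clones called none of 6 members, with 7.30% of 9874 genes called in either direction (limma). None was called by edgeR, 3 had an unadjusted p under 0.05, and 1 was called in the fit without a filter. Without replicate 1 of Zko_E5 with B2RA, Piwil2 (-1.03) and Asz1 (1.31) were called in that comparison, and without replicate 2 none was. Called genes there were 61.9% higher, and 45.1% with TMM factors. Summed pluripotency markers were 324 to 430 RPM with B2RA, against 913 to 1633 RPM in control, and their part was not tested.

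In the Stra8-/- clones, B2RA raised 7 of 8 members tested at day 9, where 15.7% of 10111 genes were called higher. Mael was at 234 and 313 RPM in Sko_B6 and 254 and 259 RPM in Sko_F6 with B2RA, against 12.2 and 18.7 RPM and 16.0 and 30.2 RPM in control (3.78 ± 0.25, adjusted p = 8.02e-25, limma). Gtsf1 was at 45.5 and 58.9 RPM and 35.5 and 44.9 RPM with B2RA, against 2.29 and 3.18 RPM and 0.712 and 8.52 RPM in control (3.59 ± 0.43). Asz1 averaged 58.5 ± 15.8 RPM with B2RA and 4.25 ± 0.758 RPM in control (3.47 ± 0.34; SD, n = 4). Mov10l1 averaged 206 ± 20.1 and 20.3 ± 2.14 RPM (3.28 ± 0.25), and Ddx4 256 ± 24.2 and 36.9 ± 6.30 RPM (2.77 ± 0.23). In 7 of the 8 members tested all B2RA libraries of both clones lay above all control libraries, as in 30.0% of all genes tested. Piwil4 was at 13.7 and 24.9 RPM in Sko_B6 and 15.0 and 25.8 RPM in Sko_F6 with B2RA, against 1.14 to 1.59 RPM in control (3.07 ± 0.43, adjusted p = 3.08e-09). Piwil2 was at 124 and 126 RPM and 121 and 165 RPM with B2RA, against 29.7 to 44.5 RPM in control (1.89 ± 0.26). Pnldc1, at 41.8 ± 5.66 and 33.6 ± 3.11 RPM, was not called (0.30 ± 0.20). Among called genes 75.6% were higher, and 53.7% with TMM factors. Summed pluripotency markers were 260.3 to 376 RPM with B2RA and 883 to 1100 RPM in control, and their part was not tested.

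Setting the B2RA response of the Zglp1-/- clones against that of the Stra8-/- clones, 6 of 8 members had a lower response, with 8.04% of 10648 genes called in either direction. Gtsf1 differed by -3.03 ± 0.61 (adjusted p = 0.000228), Mov10l1 by -2.85 ± 0.36, Mael by -2.41 ± 0.36, Ddx4 by -1.83 ± 0.32, Piwil2 by -1.69 ± 0.36 and Asz1 by -1.43 ± 0.49 (adjusted p = 0.0389, limma). Without replicate 2 of Zko_E5 with B2RA the same 6 were called, at -3.18, -2.46, -2.44, -1.59, -1.16 and -1.86 in that order. The call of Asz1 was lost when 1 of 11 other libraries was left out (-0.995 to -1.50), with TMM factors (-1.31), without a filter, in edgeR and in the fit of these groups alone, where Piwil2 was lost too (adjusted p = 0.0648). Piwil4 was at 4.74 to 9.66 RPM in the Zglp1-/- clones with B2RA and 0 to 0.415 RPM in their control groups, and its difference was not called (-0.54 ± 0.61). Pnldc1 did not differ beyond its error (0.24 ± 0.28). Among called genes 21.3% had a higher response in the Zglp1-/- clones, and 36.5% with TMM factors.

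**Figure D4:**
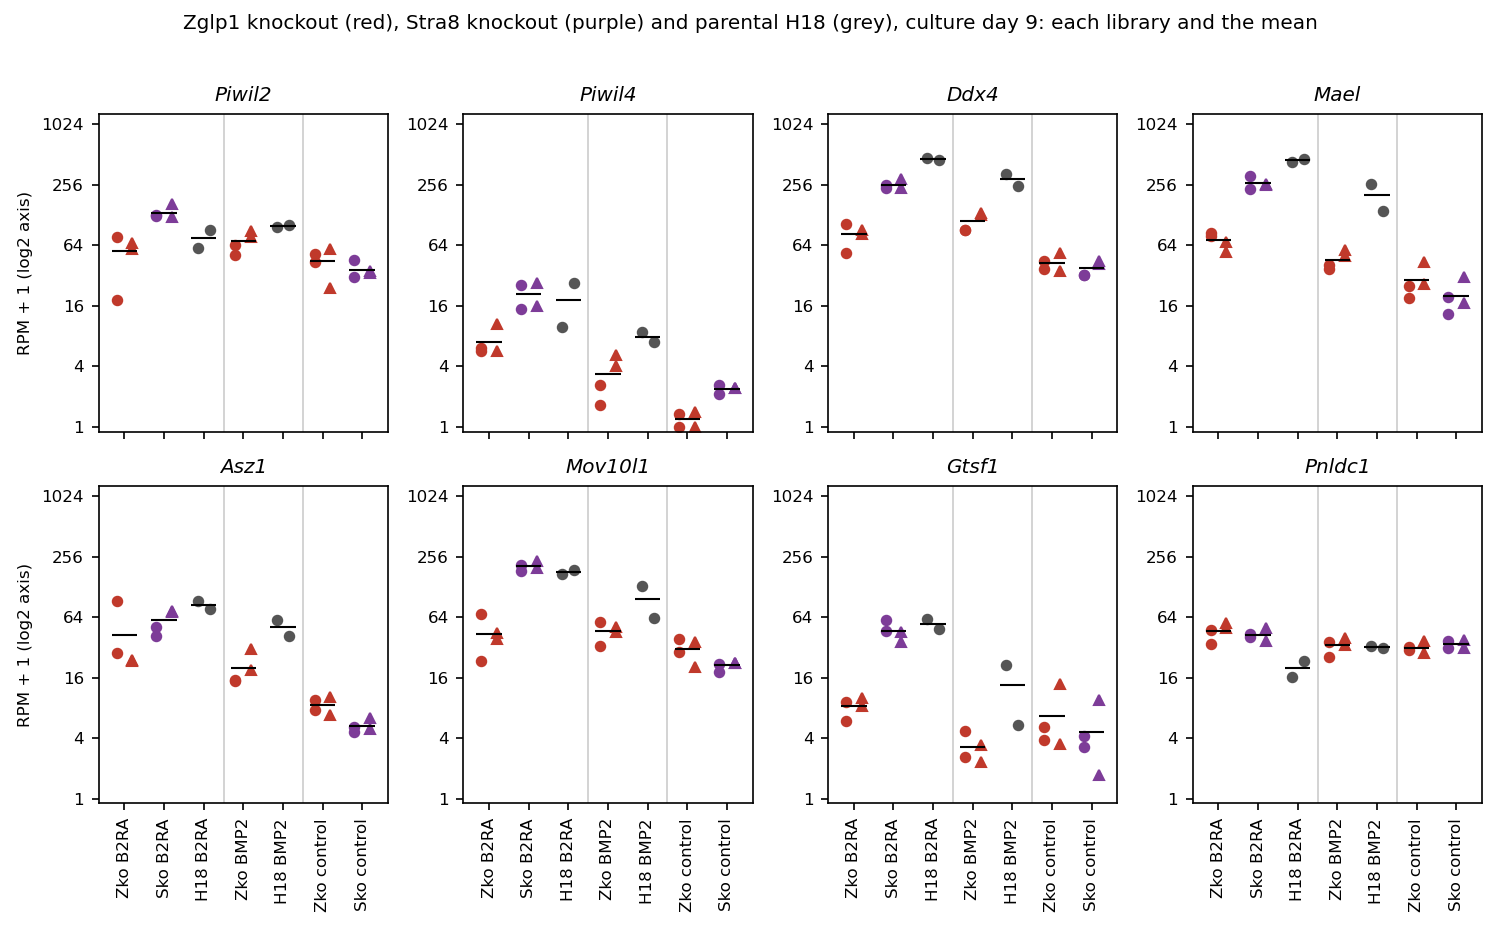
RPM + 1 on a log2 axis for 8 genes at day 9 in Zglp1-/- clones (red), Stra8-/- clones (purple) and parental H18 (grey). Points are libraries, circles and triangles the 2 clones of a genotype, and black lines means. With B2RA, Mael lies at 53.5 to 84.2 RPM in the Zglp1-/- clones, at 234 to 313 RPM in the Stra8-/- clones and at 435 to 463 RPM in H18.

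Against the parental line with B2RA at day 9, the Zglp1-/- clones had 5 of 7 members lower and 1 higher, where 21.0% of 10246 genes were called lower and 15.4% higher. Mael was at 53.5 to 84.2 RPM in the clones, against 435 and 463 RPM in H18 (-2.66 ± 0.31), and Ddx4 at 52.7 to 103 RPM against 471 and 454 RPM (-2.52 ± 0.28). Mov10l1 was at 22.3 to 68.2 RPM in the clones and 172 and 187 RPM in H18 (-2.14 ± 0.31), and Gtsf1 at 5.01 to 9.06 RPM and 60.9 and 47.4 RPM (-2.73 ± 0.53). For these 4 of 7 members all libraries of the clones lay below both H18 libraries, as in 31.1% of all genes tested. Asz1 overlapped through the 1 library of Zko_E5 that stood apart, at 22.6 to 92.3 RPM in the clones and 92.5 and 76.1 RPM in H18 (-1.28 ± 0.42, adjusted p = 0.00726). Without that library its change was -1.71, and without the other Zko_E5 library it was not called (-0.85). Pnldc1 was higher, at 33.5 to 55.3 RPM in the clones, against 15.3 and 22.5 RPM in H18 (1.24 ± 0.24, adjusted p = 6.89e-06). Without H18 replicate 1, Pnldc1 (0.98) and Asz1 (-1.14) were not called and Gtsf1 left the filter (-2.55), as it did without H18 replicate 2 (-2.91), which left 3 calls without replicate 1 in place of 6. Piwil2 was not called (-0.59 ± 0.32), except without replicate 1 of Zko_E5 (-1.12). Early germ cell markers summed to 968 to 1304 RPM in the clones, against 153 to 267 RPM in H18, and pluripotency markers to 324 to 430 RPM and 77.8 to 80.3 RPM. Gonadal soma markers summed to 25.3 to 51.3 RPM in the clones and 36.5 to 151 RPM in H18. Their part was not tested.

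With BMP2 alone 3 of 6 members were lower in the Zglp1-/- clones than in H18 at day 9, where 9.56% of 9575 genes were called lower. Mael was at 36.3 to 56.2 RPM in the clones, against 261 and 140.0 RPM in H18 (-2.08 ± 0.31), and Ddx4 at 90.3 to 134 RPM against 328 and 251 RPM (-1.39 ± 0.28). Asz1 was at 13.9 to 29.7 RPM in the clones and 59.6 and 41.0 RPM in H18 (-1.40 ± 0.42, adjusted p = 0.00697), and was not called without H18 replicate 1 (-1.14). Mov10l1 missed the fold at 32.5 to 56.3 RPM, against 130 and 62.3 RPM in H18 (-0.99 ± 0.31), and passed it without H18 replicate 2 (-1.51), without replicate 1 of Zko_E5 (-1.18) or without replicate 1 of Zko_G10 (-1.03). Among called genes 38.8% were higher in the clones, and 55.5% with TMM factors. The Stra8-/- clones with B2RA were called different from H18 with B2RA in 1 of 8 members, Pnldc1. This gene was at 35.9 to 49.3 RPM in the clones and 15.3 and 22.5 RPM in H18 (1.12 ± 0.24, adjusted p = 8.83e-05, limma). Of 10131 genes 11.3% were called higher, a share near that of the members. Another 1369 genes, and no member, were called lower. At an unadjusted p under 0.05 there were 4 of 8 members (limma). Pnldc1 was not called without H18 replicate 1 (0.86) or with a pseudocount of 5 (0.98), while Piwil2 was called without H18 replicate 2 (1.15). Ddx4 was at 238 to 289.9 RPM in the Stra8-/- clones and 471 and 454 RPM in H18, short of the fold (-0.86 ± 0.28, adjusted p = 0.00835). For Mael the change was -0.76 ± 0.31, for Mov10l1 0.19 ± 0.31 and for Gtsf1 -0.24 ± 0.53. The H18 libraries with B2RA are shared by both genotype comparisons.

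In H18 itself, B2RA raised Gtsf1 and Mael over BMP2 at day 9, 2 of 7 members tested, where 9.05% of 9594 genes were called higher. Gtsf1 was at 60.9 and 47.4 RPM with B2RA, against 20.6 and 4.47 RPM with BMP2 (2.33 ± 0.61, adjusted p = 0.00240, limma), and Mael at 435 and 463 RPM against 261 and 140.0 RPM (1.23 ± 0.36, adjusted p = 0.00717). Neither was called without BMP2 replicate 2 (1.34 and 0.78) or in the fit of these groups alone (adjusted p = 0.0683 and 0.0506), and Mael also not without B2RA replicate 2 (1.18). Mov10l1, at 172 and 187 RPM with B2RA and 130 and 62.3 RPM with BMP2, missed the fold (0.99 ± 0.36) and passed it without BMP2 replicate 1 (1.51). Pnldc1 was at 15.3 and 22.5 RPM with B2RA and 32.5 and 30.7 RPM with BMP2 (-0.74 ± 0.28). Piwil4 was at 8.79 and 26.1 RPM with B2RA and 7.78 and 6.04 RPM with BMP2 and was not tested, since 1 library reached 10 RPM. Early germ cell markers summed to 153 to 267 RPM with B2RA, against 1157 to 1607 RPM with BMP2, and their part was not tested.

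Over time, 4 of 6 members tested rose in H18 with BMP2 and 2 of 7 in uninduced OE_A2, and the difference between these was not tested. In H18 the 4 were Mael, Mov10l1, Ddx4 and Asz1, where 13.6% of 9016 genes were called higher at day 9. At day 9, Mael was at 261 and 140.0 RPM, against 35.2 and 47.8 RPM at day 4 (2.19 ± 0.36), Mov10l1 at 130 and 62.3 RPM against 22.3 and 17.5 RPM (2.13 ± 0.36), and Ddx4 at 328 and 251 RPM against 65.7 and 94.2 RPM (1.85 ± 0.32). Asz1 was at 59.6 and 41.0 RPM at day 9 and 9.39 and 16.2 RPM at day 4 (1.92 ± 0.49, adjusted p = 0.00162), and was not called without replicate 1 of day 4 (1.55) or day 9 (1.65). Called genes were 83.4% higher, and 59.1% with TMM factors. In uninduced OE_A2, Mael (1.14 ± 0.36) and Mov10l1 (1.42 ± 0.36) were called higher at day 9 than at day 4, where 7.35% of 9024 genes were. Both calls were lost without replicate 2 of day 4 (0.74 and 1.26) or of day 9 (0.65 and 0.97), and Mael also in the fit of these groups alone (adjusted p = 0.0620). Ddx4 was called there without replicate 1 of day 9 (1.26). Called genes were 70.1% higher, and 55.3% with TMM factors.

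With Dox in OE_A2, Ddx4 and Mov10l1 were called from day 4, Mael and Asz1 from day 5, and Gtsf1 and Piwil2 at day 7. This is an order of calls, and differences between these days were not tested. Mael and Asz1 were each at 0.92 at day 4, not far under the fold, and Asz1 was not called at day 5 without a filter. At day 4, Dox called Ddx4 (194 and 217 RPM with Dox, against 44.7 and 55.8 RPM in control; 2.01 ± 0.32) and Mov10l1 (1.50 ± 0.36), 2 of 6 members, where 6.01% of genes were called higher (62.5% of called genes were higher, and 41.3% with TMM factors). At day 5 it called those with Mael (1.84 ± 0.36) and Asz1 (1.35 ± 0.49), 4 of 7, where 6.85% were. At day 7 it called 6 of 7, adding Piwil2 (1.14 ± 0.36) and Gtsf1 (2.89 ± 0.61), where 13.5% were. Piwil2 was not called there without replicate 1 of control (0.89) or Dox (1.07), and Gtsf1 left the filter without either Dox library (2.36 and 3.42). DoxRA called 4 of 8 members higher at day 4 (9.04% of genes), 7 of 8 at day 5 (16.3%) and 7 of 8 at day 7 (20.5%), with Pnldc1 lower at day 7 (-1.07 ± 0.28), where 18.8% of genes were called lower. With TMM factors the share of called genes that were higher moved to 43.0% at day 4, against 63.9%, and to 50.9% at day 5, against 67.1%, and Piwil2 was no longer called at day 5 (0.80, against 1.01). At day 7, Piwil2 was not called without control replicate 1 (0.85) or DoxRA replicate 2 (0.998), Pnldc1 without control replicate 2 (-0.85) or DoxRA replicate 1 (-0.51) or with a pseudocount of 5 (-0.84), and Gtsf1 left the filter without either DoxRA library (3.64 and 3.45). At days 4, 5 and 7 the Dox and DoxRA libraries of OE_A2 carry a label text that names 1 RNA extraction kit, while that of their controls names that kit or another, so treatment and extraction text cannot be told apart at those days. The column of DoxRA replicate 2 of day 7 has the title of 1 sample with the text of the controls, but its name also fits a sample with the other text. All PGCLC libraries of day 9 carry the same text.

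For induction with WIN or BMS and on the Stra8-/- background, differences between responses were not tested at days 4, 5 and 7. SerumMinusWINDox called none of 7 members at day 4 (limma; 2 at an unadjusted p under 0.05; 3.72% of genes in either direction), 3 of 7 at day 5 (3.94% higher) and 4 of 7 at day 7 (13.9%). BMSDox called Mov10l1 alone of 5 members at day 4 (4.88%), 3 of 6 at day 5 (7.39%) and 5 of 7 at day 7 (11.6%). Mael, Mov10l1 and Ddx4 were called at day 5 in both media, though with TMM factors Ddx4 was lost in both (0.86 with SerumMinusWINDox and 0.97 with BMSDox) and Mael with SerumMinusWINDox (adjusted p = 0.0546). A pseudocount of 5 called Mael at day 4 with SerumMinusWINDox (1.00) and lost Mov10l1 with BMSDox (0.95). At day 7, Asz1 with SerumMinusWINDox (1.44 ± 0.49) was not called without either SerumMinusWIN library (1.39 and 1.48) or SerumMinusWINDox replicate 2 (1.22). With BMSDox, Asz1 (2.20 ± 0.49) left the filter without either BMSDox library (2.28 and 2.12) and Piwil2 (1.27 ± 0.36) was not called without BMSDox replicate 1 (1.09). The share of called genes that were higher was, with TMM factors and without them, 42.8% and 62.7% for SerumMinusWINDox at day 4, 46.1% and 70.5% at day 5 and 56.0% and 68.2% at day 7. For BMSDox it was 53.1% and 63.9% at day 5 and 49.7% and 69.2% at day 7. In OESko_A11, DoxRA called none of 6 members at day 4 (1.12% in either direction) or day 5 (9.49%), with 2 and 4 at an unadjusted p under 0.05 (limma) and 1 called at day 5 without a filter, and 5 of 8 at day 7 (4.39% higher). Those 5 were Piwil4 (2.97 ± 0.61), Gtsf1 (1.98 ± 0.61), Mael (1.79 ± 0.36), Mov10l1 (1.56 ± 0.36) and Ddx4 (1.01 ± 0.32). Ddx4 lost its call without any of the 4 libraries (1.00 to 1.01) and with TMM factors (0.88), Piwil4 (2.53 and 3.40) and Gtsf1 (1.83 and 2.13) left the filter without either DoxRA library, and Mov10l1 was not called without DoxRA replicate 1 (1.40) nor Gtsf1 without control replicate 2 (1.51). Called genes of OESko_A11 were 57.1% higher with TMM factors and 73.7% without them at day 4, 40.2% and 63.2% at day 5, and 52.5% and 68.3% at day 7.

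B2RA called no member in either knockout genotype at day 4 or day 5. In the Zglp1-/- clones 0.496% of genes were called in either direction at day 4 and 1.01% at day 5, and in the Stra8-/- clones 0.185% and 0.488% (limma). At an unadjusted p under 0.05 the Zglp1-/- clones had 1 and 2 of 6 members at those days and the Stra8-/- clones 2 and 1. At day 7 the Zglp1-/- clones had Mael called of 6 members (1.00 ± 0.25; 3.27% of genes higher), a change on the fold threshold that was lost with TMM factors (0.92), with a pseudocount of 5 and without any 1 of 4 of the 8 libraries (0.89 to 0.98). The Stra8-/- clones had 5 of 7 at day 7 (6.00% higher), namely Piwil4 (2.38 ± 0.43), Mael (2.098 ± 0.25), Mov10l1 (1.86 ± 0.25), Ddx4 (1.52 ± 0.23) and Asz1 (1.51 ± 0.34). Called genes there were 64.2% higher with TMM factors and 75.5% without them.

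**Figure D5:**
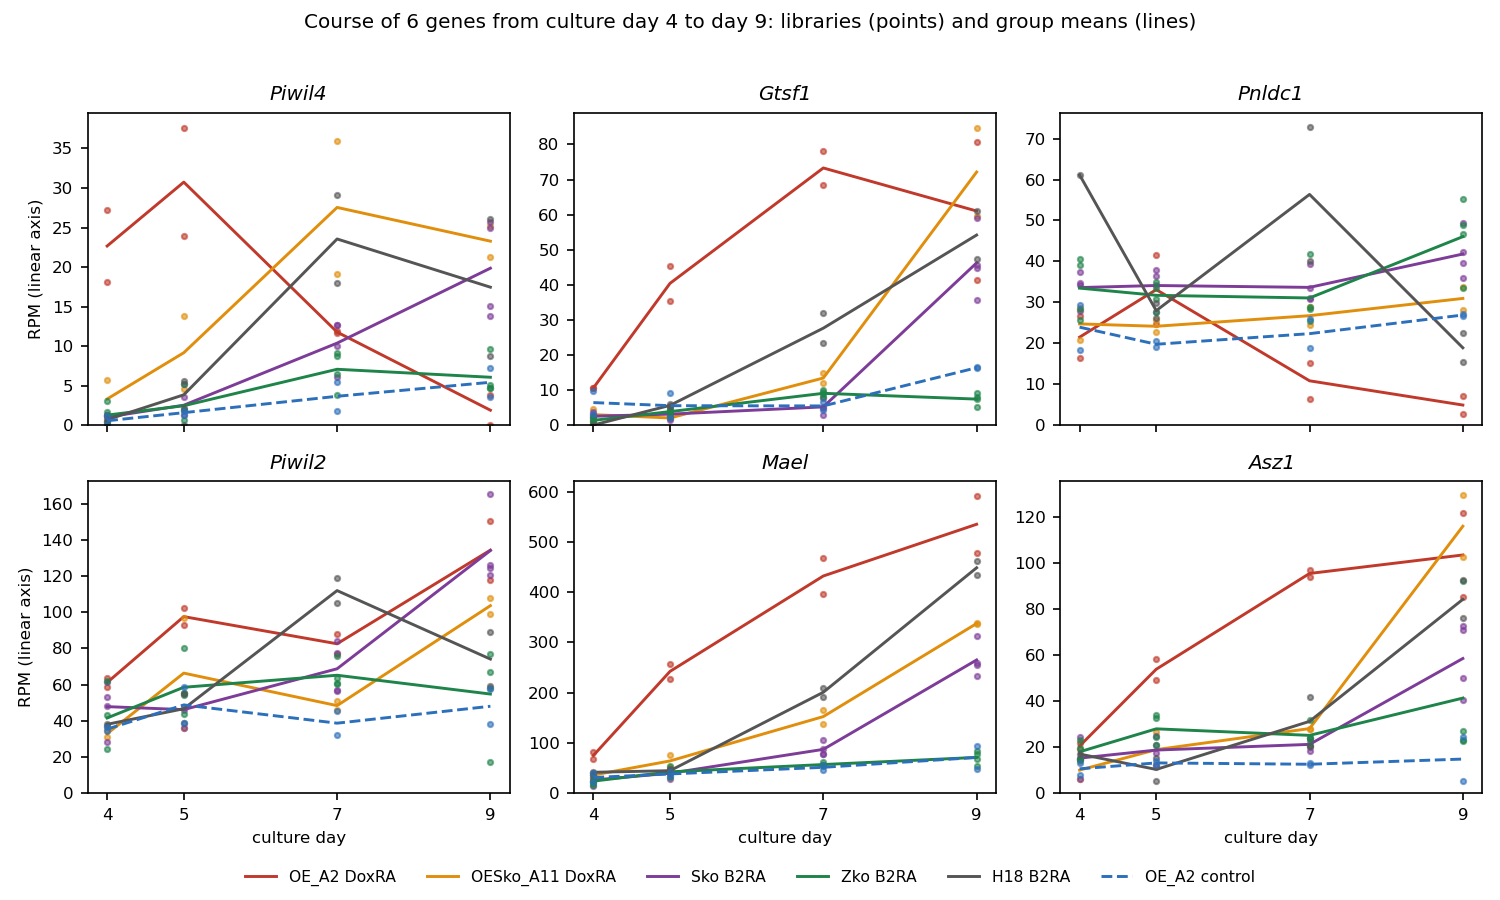
RPM on a linear axis over culture days 4, 5, 7 and 9 for 6 genes. Points are libraries and lines group means, with a pair of clones averaged for Sko and Zko. Piwil4 with DoxRA in OE_A2 (red) is highest at days 4 and 5 and near 0 at day 9, whereas in OESko_A11 (orange) it is highest at day 7, and Gtsf1 with DoxRA in OE_A2 reaches 68.3 and 78.2 RPM at day 7. The OE_A2 DoxRA libraries of days 4 and 5 carry another extraction text than those of day 9 and of OESko_A11. Day and line therefore cannot be told apart from extraction text there.

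Piwil4, the PIWI protein of nuclear silencing, was called early with DoxRA in OE_A2. With DoxRA in OE_A2 it was at 18.1 and 27.2 RPM at day 4, against 1.08 and 0 RPM in control (4.01 ± 0.61, adjusted p = 4.88e-07), and at 37.6 and 23.9 RPM at day 5, against 1.81 and 1.32 RPM (3.60 ± 0.61). At day 7 it was at 11.7 and 11.8 RPM with DoxRA, against 5.51 and 1.77 RPM (1.59 ± 0.61, adjusted p = 0.0216), was not called without control replicate 2 (0.97) or with either other pseudocount (1.73 and 0.99), and left the filter without either DoxRA library (1.60 and 1.58). By day 9 it was under the filter in both groups. In OESko_A11 with DoxRA it was at 5.67 and 0.925 RPM at day 4, 13.8 and 4.54 RPM at day 5, 36.0 and 19.1 RPM at day 7 and 25.2 and 21.3 RPM at day 9. The OE_A2 DoxRA libraries of days 4 and 5 carry another extraction text than those of day 9 and of OESko_A11. So does replicate 1 of day 7, while the text of replicate 2 is uncertain. Day and line therefore cannot be told apart from extraction text there, and differences between days were not tested for Piwil4. With B2RA in H18, Piwil4 was at 0.679 RPM at day 4 in the 1 library there, 2.13 and 5.53 RPM at day 5, 17.9 and 29.2 RPM at day 7 and 8.79 and 26.1 RPM at day 9. In the Zglp1-/- clones it did not reach 10 RPM at day 9 in any library.

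Other genes of the pathway, from a list that does not include the members, changed in the same comparisons. This list, too, was chosen with earlier results of these data known, so its counts are no test of an excess. Of 20 listed genes, 19 have a row, and Tdrd15 was not analysed here. At day 9, 9 of 13 tested were called higher and 2 lower with Dox in OE_A2 (median change 1.81), 11 and 2 of 15 with DoxRA (2.27), 9 and 1 of 13 with SerumMinusWINDox (2.16) and 9 and 2 of 14 with BMSDox (1.49). With B2RA, 11 were called higher and 2 lower of 14 in the Stra8-/- clones (1.92), but 2 and 3 of 12 in the Zglp1-/- clones (0.61). The medians over all genes tested ran from 0.014 to 0.232 in these comparisons. Of all genes tested, 13.4% were called higher and 9.38% lower with Dox, 25.6% and 22.5% with DoxRA, 13.3% and 9.71% with SerumMinusWINDox, 14.8% and 6.39% with BMSDox, 6.63% and 4.33% with B2RA in the Zglp1-/- clones, and 15.7% and 5.08% in the Stra8-/- clones. Tex15, which acts with Piwil4 in the nucleus, averaged 614 ± 43.0 RPM with Dox and 54.3 ± 4.57 RPM in control (3.48 ± 0.37). Tdrkh, the mitochondrial partner of Pnldc1, averaged 85.6 ± 2.50 and 16.3 ± 7.95 RPM (2.40 ± 0.33), and Tdrd1, a tudor protein that binds Piwil2, 17.6 ± 6.80 and 2.83 ± 1.08 RPM (2.25 ± 0.48). Btbd18 (2.06 ± 0.53) and Exd1 (1.97 ± 0.45) rose as well. The largest fall was that of Dnmt3l, a cofactor of de novo DNA methylation, at 16.3 ± 3.57 RPM with Dox and 246 ± 68.4 RPM in control (-3.82 ± 0.79; SD, n = 2). With DoxRA, Tex15 (4.64 ± 0.37), Tdrkh (3.27 ± 0.33), Btbd18 (3.19 ± 0.53), Mybl1 (2.96 ± 0.61) and Tdrd7 (2.67 ± 0.55) rose and Dnmt3l fell (-5.63 ± 0.79). Gpat2, a mitochondrial partner of Piwil2, rose with SerumMinusWINDox (2.70 ± 0.36), as did Tex15 (3.89 ± 0.37), Btbd18 (2.92 ± 0.53), Tdrkh (2.59 ± 0.33), Tdrd1 (2.46 ± 0.48) and Tdrd7 (2.32 ± 0.55). With BMSDox, Tex15 (3.84 ± 0.37), Tdrd9 (3.67 ± 0.50), Tdrd1 (2.76 ± 0.48), Btbd18 (2.47 ± 0.53) and Tdrd7 (1.97 ± 0.55) rose and Tdrd12 fell (-1.83 ± 0.31).

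With B2RA in the Stra8-/- clones, Tex15 averaged 241 ± 28.4 RPM, against 13.4 ± 2.80 RPM in control (4.08 ± 0.26; SD, n = 4), and Tdrd9 (3.64 ± 0.35), Btbd18 (2.97 ± 0.37), Tdrd1 (2.86 ± 0.34) and Tdrd7 (2.85 ± 0.39) rose. Morc1, a factor of transposon silencing in the male germ line, fell in both genotypes, to 14.4 ± 5.81 RPM in the Stra8-/- clones against 89.5 ± 29.9 RPM in control (-2.56 ± 0.26), and to 19.7 ± 8.04 RPM in the Zglp1-/- clones against 133 ± 28.9 RPM in control (-2.75 ± 0.26). In the Zglp1-/- clones Dnmt3l (-3.10 ± 0.56) and Tdrd12 (-1.16 ± 0.22) also fell, while Tdrd7 (1.32 ± 0.39) and Gpat2 (1.11 ± 0.26) rose. Of the 14 listed genes tested for the difference of these responses, 7 had a lower response in the Zglp1-/- clones than in the Stra8-/- clones and none a higher one, where 8.04% of all genes were called in either direction. With B2RA, 9 of 13 were lower in the Zglp1-/- clones than in H18 and none was higher, where 21.0% of all genes were called lower.

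Small RNA genes outside the piRNA pathway were called at shares near those of all genes given above, so their counts show nothing particular to the list. Of 10 listed, all tested, 2 were called higher and 1 lower with Dox, 3 and 2 with DoxRA, 2 and 2 with SerumMinusWINDox, 2 and 1 with BMSDox, 1 and none with B2RA in the Zglp1-/- clones, and 2 and none in the Stra8-/- clones. Ago4 (1.69 ± 0.55 with Dox, 2.25 ± 0.55 with DoxRA, 2.00 ± 0.55 with SerumMinusWINDox, 1.70 ± 0.55 with BMSDox) rose in all 6 comparisons, with 1.31 ± 0.39 in the Zglp1-/- clones and 2.29 ± 0.39 in the Stra8-/- clones. Ago3 rose in 5 of them, the exception being the Zglp1-/- clones, by 1.08 ± 0.42 with Dox and 2.17 ± 0.42 with DoxRA. Ago2, the slicing Argonaute, fell with Dox (-1.31 ± 0.34), DoxRA (-1.37 ± 0.34) and SerumMinusWINDox (-1.51 ± 0.34). Mov10, the somatic relative of Mov10l1, was at 4.04 ± 5.72 RPM with DoxRA and 32.9 ± 21.6 RPM in control (-3.32 ± 0.95), and Tarbp2 rose there (1.34 ± 0.22). Xpo5 fell with SerumMinusWINDox (-1.27 ± 0.31) and BMSDox (-1.53 ± 0.31).

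Of 12 listed repressors of germline promoters, all tested, 1 was called higher and 1 lower with Dox, 2 and 3 with DoxRA, 1 and 1 with SerumMinusWINDox, 3 and none with BMSDox, none and 1 with B2RA in the Zglp1-/- clones, and none in the Stra8-/- clones. With so few genes these counts, too, lie near the shares of all genes given above. Setdb1, a histone H3 lysine methyltransferase, averaged 340.4 ± 14.7 RPM with Dox and 87.0 ± 19.3 RPM in control (1.97 ± 0.27), and rose also with DoxRA (3.02 ± 0.27), SerumMinusWINDox (2.03 ± 0.27) and BMSDox (1.06 ± 0.27). Dnmt3b, a de novo DNA methyltransferase, fell with Dox (-2.76 ± 0.75), DoxRA (-5.17 ± 0.75) and SerumMinusWINDox (-1.97 ± 0.75). E2f6, the E2F protein of PRC1.6, was at 7.12 ± 6.68 RPM with DoxRA and 25.2 ± 0.516 RPM in control (-1.99 ± 0.35), Dnmt3a fell there (-1.63 ± 0.39) and Mga rose (1.22 ± 0.38). With BMSDox Dnmt3a (1.33 ± 0.39) and Ring1 (1.66 ± 0.50) rose, and with B2RA in the Zglp1-/- clones L3mbtl2, a PRC1.6 subunit, fell (-1.11 ± 0.18).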

How the data were processed

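Sequencing reads of RNA 3′ ends, amplified from 1 ng of total RNA per the labels' protocols, were processed by the authors to a table of reads per 1000000 (RPM), with HTSeq 0.9.1, SAMtools 1.3, Bowtie 1.1.2, TopHat2 2.1.0 and cutadapt 1.9.1, and the build mm10, named in the submitters' processing notes. The deposited RPM columns sum to 1000000 over endogenous genes. In columns of transgenic lines the deposited values also hold transgene rows, so their total is higher and they were treated as a signal on the same scale. Of the 196 labelled samples 194 had a matching column, 2 had none, and 1 column matched no single sample and was not used. In 3 lines of the table shifted cells were realigned.

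Low values were whole multiples of 1 read in 100.0% of cases within 0.1 reads, so read counts were recovered: 877040 to 5196593 per library. The 10 members and the gene lists were chosen with earlier results of these data known.

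Changes were fitted with limma 3.58.1 (R 4.3.3) on log2(RPM + 1), with 1 mean per group over 98 groups and 191 libraries, eBayes with trend and robust settings, and Benjamini-Hochberg adjustment over all genes with at least 2 compared libraries at 10 RPM. Clones of 1 genotype were averaged with equal weight. Differences between responses were fitted as contrasts in the same model. The scripts were tested on simulated data. Alternatives were a pseudocount of 0.5 or 5, no filter, TMM factors, a replicate block, the groups compared alone, edgeR 4.0.16 quasi-likelihood on the recovered counts for day 9, and leaving out each library for days 7 and 9. On recovered counts edgeR called, of members, 5 with Dox, 7 with DoxRA, 2 with B2RA in the Zglp1-/- clones and 7 in the Stra8-/- clones. All members are named, and of each list up to 6 called genes with the largest change in the 6 main comparisons of day 9.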

Additional observations from a re-analysis of the deposited data

Results flagged for a closer look

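Responses that differed between lines or media by a test of the difference itself (limma, adjusted over all genes tested) concerned 8 members. The Pnldc1 response to Dox differed by 1.84 ± 0.40 between BMS and control medium (adjusted p = 0.00433), where 1.64% of all genes tested were called, and was not called in edgeR or in the fit of these groups alone. Between OESko_A11 and OE_A2 the DoxRA responses of Pnldc1 and Piwil4 differed by 2.42 ± 0.40 and 2.71 ± 0.86, 2 of 8 members tested, where 20.0% of all genes were called, a share near that of the members. Piwil4 was not called in edgeR or in the fit of these groups alone, and in OE_A2 it was under the filter in both groups. Between the Zglp1-/- and the Stra8-/- clones the B2RA responses differed by -3.03 ± 0.61 for Gtsf1, -2.85 ± 0.36 for Mov10l1, -2.41 ± 0.36 for Mael, -1.83 ± 0.32 for Ddx4, -1.69 ± 0.36 for Piwil2 and -1.43 ± 0.49 for Asz1, 6 of 8 members tested, where 8.04% of all genes were called. Asz1 was not called in edgeR or in the fit of these groups alone, nor Piwil2 in the last.

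A single library stood far from the other 3 of its genotype and treatment at day 9 in 3 of 30 cases examined, where chance gives about 1 in 20. The gap to the nearest library, as a share of the whole range, was 0.936 for Asz1 in replicate 2 of Zko_E5 with B2RA (92.3 RPM). It was 0.88 for Piwil2 in replicate 2 of Sko_F6 with B2RA (165 RPM), and 0.835 for Mov10l1 in replicate 2 of Sko_B6 in control (17.1 RPM).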

How the results depend on the processing

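Counts of members called lay within 1.5 times those of the report in 40 of 43 comparisons with TMM factors, 39 of 43 without a filter, 42 of 43 with a pseudocount of 0.5, 38 of 43 with a pseudocount of 5, 15 of 22 with the groups compared alone, 18 of 22 in edgeR and 136 of 170 fits that left out a library, and no called member changed direction. Within that range counts still moved, over all settings from 5 to 8 for BMSDox at day 9 (7 in the report) and from 5 to 8 for DoxRA at day 7 (8 in the report). With a pseudocount of 0.5, a pseudocount of 5, TMM factors, the groups compared alone or edgeR, BMP2 in the Zglp1-/- clones called 1 member in place of 2. The groups compared alone called 0 in place of 1 for DoxRA against Dox, for BMS against control and for the difference between BMS and control medium, 0 in place of 2 for B2RA against BMP2 in H18, 1 in place of 2 for day 9 against day 4 in OE_A2 control, and 1 in place of 2 for OESko_A11 against OE_A2. In edgeR, BMS against control and the BMS difference gave 0 and the OESko_A11 difference 1. A pseudocount of 5 gave 0 in place of 1 for Stra8-/- clones against H18, for BMSDox at day 4 and for B2RA in the Zglp1-/- clones at day 7, and 1 in place of 0 for SerumMinusWINDox at day 4. Without a filter, DoxRA against Dox called 2, B2RA against BMP2 in the Zglp1-/- clones 1, OESko_A11 at day 5 1 and the Zglp1-/- clones at day 7 3. TMM factors gave 1 in place of 3 for SerumMinusWINDox at day 5 and 0 for the Zglp1-/- clones at day 7.

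Leaving out 1 library at a time gave 0 to 1 calls for DoxRA against Dox, BMS against control, the BMS difference and the Zglp1-/- clones at day 7, 1 to 2 for BMP2 in the Zglp1-/- clones and the OESko_A11 difference, 0 to 2 for B2RA against BMP2 in the Zglp1-/- clones and Stra8-/- clones against H18, 0 to 3 for B2RA against BMP2 in H18 and for day 9 against day 4 in OE_A2, 3 to 6 for Zglp1-/- clones against H18 with B2RA, 5 to 7 for DoxRA, 3 to 5 for BMSDox and 1 to 4 for OESko_A11 at day 7. Days 4 and 5 were not run.

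Counts over all genes moved by more than 1.5 times in 25 of 43 comparisons without a filter, among them DoxRA (6980, against 4584 with it), BMSDox (3134, against 1969), OESko_A11 (3227, against 1935) and B2RA in the Stra8-/- (3370, against 2103) and Zglp1-/- clones (1976, against 1094). The groups compared alone moved 11 of 22, with 650 for B2RA in the Zglp1-/- clones and 304, against 856, for its difference from the Stra8-/- clones. In edgeR 6 of 22 moved, the last of these to 282. A pseudocount of 5 moved 7 of 43 (644 for B2RA in the Zglp1-/- clones). Leaving out 1 library moved 49 of 170 counts over all genes. B2RA against BMP2 in H18 called 304 genes without BMP2 replicate 2 (1538 in the report's fit), day 9 against day 4 in H18 called 378 without day 9 replicate 1 (1474), and Zglp1-/- clones against H18 with BMP2 called 608 without H18 replicate 1 (1496). Dox called 813 without Dox replicate 1 at day 7 (2313) and 1374 without Dox replicate 1 at day 9 (2139), and DoxRA against Dox 568 without Dox replicate 2 (1355). OESko_A11 with DoxRA called 89 without DoxRA replicate 1 at day 7 (586) and 946 without DoxRA replicate 1 at day 9 (1935). The difference between Zglp1-/- and Stra8-/- clones called 476 without replicate 2 and 1482 without replicate 1 of Zko_E5 with B2RA (856), and the BMS difference 8 without control replicate 1 (164). Numbers n1 and n2 are shared between groups by name only, with correlations of deviations from -0.159 to 0.331. A replicate block changed none of the 294 member calls and, of counts over all genes, 1 of 43 (2, against 1). In the library with the fewest reads 3 reads stood for 3.42 RPM, which limits what can be seen of genes at such levels.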

Other observations

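Over the 98 PGCLC groups, the genes whose mean log2(RPM + 1) followed each member most closely were searched among 11050 genes, as a description over groups that share lines, days and libraries of differing depth. For Ddx4 they were Stk31 (Pearson r = 0.964), Zcwpw1 (0.95) and Tex12 (0.946), for Mael Slc25a31 (0.953), Gpat2 (0.946) and Ccdc172 (0.937), and for Mov10l1 Stag3 (0.953), Mael (0.937) and Gpat2 (0.931). Asz1 was followed by Mael (0.865), Xlr4b (0.863) and Fkbp6 (0.852), Piwil2 by Fkbp6 (0.873), Asz1 (0.833) and Gpat2 (0.812), and Gtsf1 by Fmr1nb (0.914), Rhox13 (0.909) and Tex101 (0.904). Piwil4 was followed by Rhox10 (0.853), Fut4 (0.844) and Rec8 (0.837), and Pnldc1 by Rab11fip4 (0.78), Rnf187 (0.779) and Sulf2 (0.774). Among the members, Mael with Mov10l1 (0.937), Ddx4 with Mov10l1 (0.923) and Ddx4 with Mael (0.911) had the highest values, while Pnldc1 with the other members ranged from -0.259 to 0.134. Piwil1, at most 7.17 RPM, was followed by Nrf1 (0.758), Majin (0.757) and Ssh2 (0.756), at levels of a few reads.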
